A study of Mus musculus with 4 samples.

Results

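The genes described here carry, make, break down and sense retinoic acid. They are the receptors Rara, Rarb and Rarg, the binding proteins Crabp1 and Crabp2, the retinol transporter gene Stra6, and the enzyme genes Cyp26a1, Dhrs3 and Aldh1a2. They were found by symbol: every probe set annotated with exactly 1 gene symbol, that of a listed gene, was kept, which gave 10 probe sets for the 9 genes, out of 22690 probe sets on the array. Rarg had 2 probe sets and each other gene had 1.

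The RNA came from mouse P19 embryonal carcinoma cells, a teratocarcinoma-derived line that takes on neural fates when aggregated in retinoic acid. The control was the unmodified line, and the LIN28A line was P19 (from ATCC) with constant expression of human LIN28A, which binds RNA and keeps let-7 microRNA precursors from being processed. Per the labels, both lines were aggregated for 4 days in medium with serum and 5e-07 M all-trans retinoic acid, and each gave 2 arrays, numbered 1 and 2. The labels do not say which promoter drives LIN28A or whether the line is 1 clone. Arrays of untreated cells were not analysed here, so the values are levels under retinoic acid and give no induction.

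Retinol enters cells through transporters such as STRA6 and is oxidised in steps to retinoic acid, the last by aldehyde dehydrogenases such as ALDH1A2. Cellular retinoic acid binding proteins carry the acid to nuclear receptors or to CYP26 enzymes, which degrade it. The receptors bind DNA with RXR partners at paired half-sites, and genes of the pathway such as Rarb, Cyp26a1, Dhrs3 and Stra6 are themselves well known to be raised by retinoic acid. The question put to the arrays was whether these transcripts had like levels in the lines, within replicate number 1 and within replicate number 2.

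Of the 9 genes, 8 had at least 1 promoter window in RefSeq's GRCm38.p6 sequences (17 windows of 300 bases, from 250 before to 50 after a start site). Crabp2 had none. The DR5 element, a direct repeat of the receptors' consensus half-sites with 5 bases between them, was searched on both strands. It occurred in the windows of Rarb and Cyp26a1 and in no other window of these genes, against 32 of all 32851 windows (0.0974%). These are matches of letters in a window, and no factor's binding was measured. The stretches are shown because the genes share the element and differ in their values: Rarb read nearly alike in the control arrays, and Cyp26a1 differed more between them than any other of the 9 genes. They are written 5′ to 3′ on the gene's strand, with only the paired half-sites of the element in capitals:
Rarb, chr14:16575477-16575576, minus strand, the 100 bases before the start site: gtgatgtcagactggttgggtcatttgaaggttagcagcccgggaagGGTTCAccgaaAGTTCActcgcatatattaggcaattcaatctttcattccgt
Cyp26a1, chr19:37697770-37697799, plus strand, 30 bases around the element: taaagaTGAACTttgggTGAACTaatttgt
The Rarb element lay from 53 to 37 bases before the start site used in its window and ran with the gene. In Cyp26a1 it lay from 32 to 16 bases before the start site used in that window and read on the opposite strand. Both start sites lie inside the annotated gene spans. The Cyp26a1 span begins at chr19:37697738, before the element, and the Rarb span, on the minus strand, at chr14:17082331.

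The arrays differed as wholes. Their median intensities were 29.0 to 38.6. Across tested probe sets, Pearson's r was 0.97 between the lines within each number, and 0.93 and 0.94 between the arrays of the control and of the LIN28A line (a description across probe sets, which are not replicates). The 3 probe sets for 18S ribosomal RNA read 136 to 677 in control 1 and 69.3 to 146 in LIN28A 1, against 9.20 to 13.5 in control 2 and 11.1 to 13.2 in LIN28A 2. The 3′ to 5′ ratio of beta-actin was 4.71 and 2.76 in control against 3.37 and 3.09 in LIN28A arrays. Control 1 was thus highest and control 2 lowest in this ratio. Of the marker lists, all 12 neural progenitor and all 12 neuron genes passed the filter on low values, as did 9 of 12 pluripotency, 7 of 12 primitive endoderm, 8 of 11 mesoderm and 8 of 12 fibroblast or smooth muscle genes on the array. The embryonal carcinoma gene Pou5f1 read 30.3 and 374 in control against 28.7 and 775 in LIN28A arrays, and the mesoderm gene Twist1 read 106 and 30.3 against 39.3 and 64.6. Under the filter lay Zfp42, Dppa4 and Tdgf1 of the pluripotency list, Afp, Gata4, Sox17, Foxa2 and Ttr of the endoderm list and Hand1, Mixl1 and Foxf1 of the mesoderm list.

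Cyp26a1, Dhrs3 and Stra6 were lower in LIN28A than in control cells within number 1 and higher within number 2, while Crabp1 and Crabp2 did the opposite. Rara, Rarb and Aldh1a2 lay lower in both LIN28A arrays than in either control array, by small amounts in at least 1 number. None of the 9 probe sets that passed the filter was called (limma with Benjamini-Hochberg adjustment over all 15838 tested probe sets, adjusted p = 1.0 for each), and limma called 0% of all tested probe sets. At an unadjusted p under 0.05, limma counted 0 of the 9, against 0.442% of tested probe sets higher and 1.21% lower. Differences are given below as LIN28A minus control of log2(intensity + 16), a scale that understates changes of dim probe sets. A difference within a number is 1 array against 1 and has no test.

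**Figure D1:**
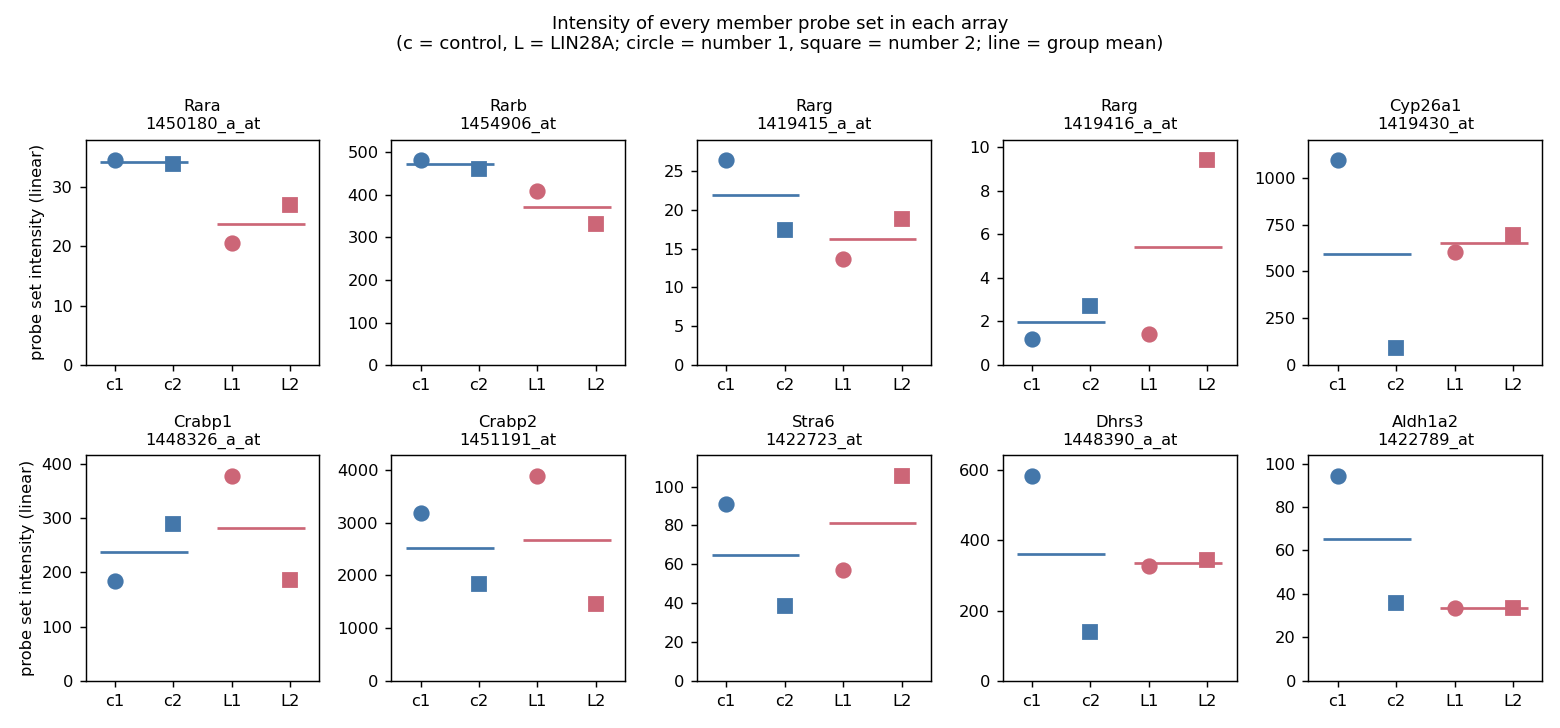
Linear intensity (vertical axis, arbitrary scanner units) of each of the 10 probe sets in control 1 and 2 (c1, c2) and LIN28A 1 and 2 (L1, L2), with circles for number 1, squares for number 2 and lines at the group means. Cyp26a1 and Dhrs3 show control 1 highest, control 2 lowest and the LIN28A arrays close together between them.

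The receptors bind retinoic acid and switch genes on or off with it. Rarb, the receptor whose own promoter carries the DR5 element printed above, read 482 and 462 in control against 409.5 and 333 in LIN28A arrays. The control arrays lay close together, with a ratio of 1.04, and both LIN28A arrays lay below them. The means were 472 ± 14.6 for control and 371 ± 54.2 for LIN28A (SD, n = 2), with a log2 difference of -0.34 ± 0.29 SE. The difference was -0.23 within number 1 and -0.45 within number 2, and these kept their sign under quantile normalization and under median centring. Under median centring the number 1 difference was -0.025 and the arrays of the lines overlapped.

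Rara, the broadly expressed receptor, read 34.5 and 33.8 in control against 20.6 and 27.0 in LIN28A arrays. The groups did not overlap, under the deposited scale or the other scalings, and the difference was -0.34 ± 0.28 SE, with -0.46 within number 1 and -0.21 within number 2. Rarg, the third receptor, read 26.4 and 17.4 in control against 13.7 and 18.8 in LIN28A arrays at its brighter probe set. Its groups overlapped, with differences of -0.51 within number 1 and 0.06 within number 2. The other Rarg probe set read 1.20 and 2.70 in control against 1.40 and 9.40 in LIN28A arrays and lay under the filter. No detection call comes with the values, so it is unknown whether these dim readings exceed background.

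CRABP1 and CRABP2 bind retinoic acid in the cytoplasm, and CRABP2 is known to hand it to receptors. Crabp2 read 3182 and 1845 in control against 3885 and 1452 in LIN28A arrays. It was high in both arrays of number 1 and low in both of number 2, in either line, with the LIN28A arrays outermost. LIN28A exceeded control within number 1 by 0.29 and lay below it within number 2 by a difference of -0.34. The difference over all arrays was -0.03 ± 0.55 SE, and it was 0.047 under quantile normalization and 0.099 under median centring. Crabp1 read 184.5 and 290.2 in control against 378 and 186 in LIN28A arrays. Here control 1 and LIN28A 2 were low and almost equal. LIN28A cells had 2.05 times the control intensity within number 1 and 0.642 times within number 2, which is 0.97 and -0.60 on the log2 scale (all arrays, 0.19 ± 0.43 SE). In RNA from whole aggregates, fewer cells of a type and less RNA per cell cannot be told apart.

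Cyp26a1, the enzyme gene that clears retinoic acid, varied most. It read 1095 and 92.9 in control against 603 and 696 in LIN28A arrays. Control 1 was highest and control 2 lowest, so the control arrays enclosed both LIN28A arrays. Control 1 had 11.8 times the intensity of control 2, whereas LIN28A 2 had 1.15 times that of LIN28A 1. The LIN28A array therefore had 0.550 times its control's intensity within number 1 and 7.49 times within number 2, or -0.84 and 2.71 on the log2 scale. Of all tested probe sets, 6.25% differed at least as much between the lines within number 1 and 0.0821% within number 2. The group means were 594 ± 709 and 649 ± 65.8 (SD, n = 2), and the difference over all arrays, 0.93 ± 1.02 SE, was smaller than its error. It became -0.74 without control replicate 2 and 2.61 without control replicate 1.

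Dhrs3, a reductase gene whose product turns retinaldehyde back to retinol, followed the same order. It read 583 and 139.5 in control against 327 and 343 in LIN28A arrays, again with both LIN28A arrays between the control arrays. The LIN28A arrays differed from each other by a ratio of 1.05, and control 1 was 4.18 times control 2. The differences were -0.80 within number 1 and 1.21 within number 2, with 0.20 ± 0.63 SE over all arrays, which became -0.77 without control replicate 2.

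Stra6, the transporter gene, read 91.1 and 38.8 in control against 57.1 and 105.5 in LIN28A arrays. Control 1 and LIN28A 2 were high, so the groups overlapped. The differences were -0.55 within number 1 and 1.15 within number 2 (all arrays, 0.30 ± 0.45 SE), and the difference over all arrays became -0.18 without control replicate 2 and -0.068 without LIN28A replicate 2. Aldh1a2, the enzyme gene for the last step of retinoic acid synthesis, read 94.3 and 36.0 in control against 33.4 and 33.5 in LIN28A arrays. Only control 1 stood apart. The difference was -1.16 within number 1 and -0.07 within number 2 (all arrays, -0.61 ± 0.42 SE), and under quantile normalization and median centring the groups overlapped.

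**Figure D2:**
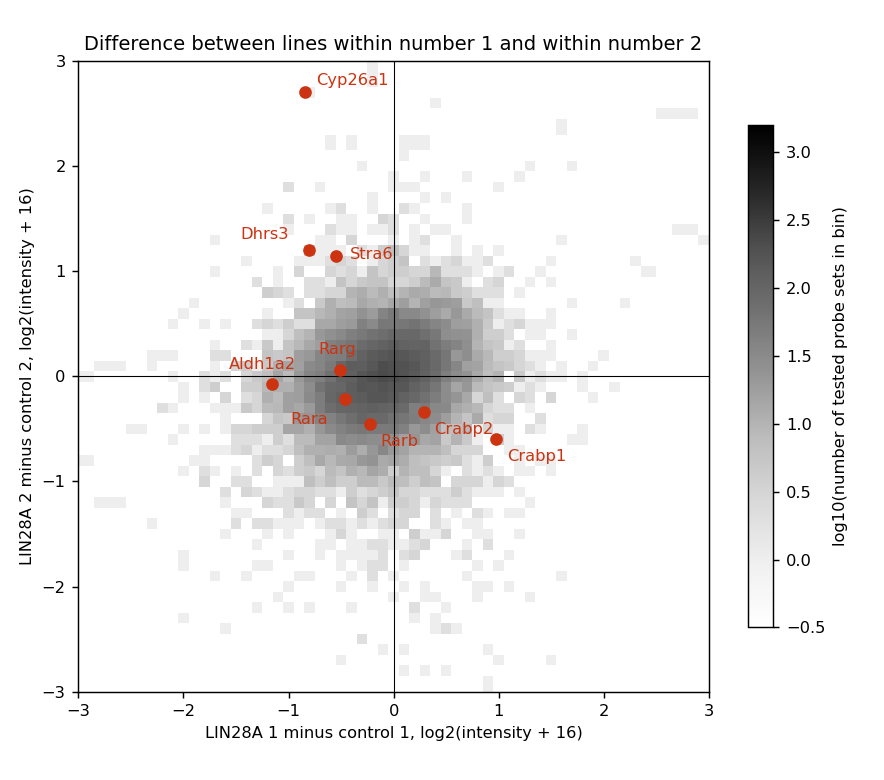
Difference between LIN28A and control within number 1 (horizontal axis) and within number 2 (vertical axis), in log2(intensity + 16), for the 9 tested probe sets of the named genes (red points) over the density of all tested probe sets (grey bins, log10 of their number). Cyp26a1, Dhrs3 and Stra6 lie at upper left, and Crabp1 and Crabp2 at lower right.

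Over the 9 probe sets the median difference was -0.51 within number 1, with 7 below 0, and -0.07 within number 2, with 5 below 0. Over all tested probe sets the medians were -0.087 and -0.0024. Above 0 lay 41.1% of them within number 1 and 49.6% within number 2, against 22.2% and 44.4% of the 9. Lower within number 1 and higher within number 2 were 4 of the 9 (Cyp26a1, Dhrs3, Stra6 and Rarg), against 25.3% of all tested probe sets. The reverse held for Crabp1 and Crabp2, against 16.8%. Cyp26a1, Dhrs3 and Stra6 turned by at least 0.5 on each side of 0, as did 0.972% of tested probe sets; this bound was set after the values were seen. Control 1 lay above and control 2 below both LIN28A arrays for 2 of the 9, Cyp26a1 and Dhrs3, against 8.42%. Both LIN28A arrays lay below both control arrays for 3 of the 9, against 15.5%, and above them for 0, against 10%. Within each number taken alone, 3 of the 9 (the same Rara, Rarb and Aldh1a2) were lower in both numbers, against 33.3%, and 0 were higher in both, against 24.2%. With 2 arrays against 2, an exact two-sided permutation test of 1 probe set cannot go below p = 0.333.

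The turn can be followed from the replicate side. Between the control arrays the 9 probe sets had a median of -0.78 (control 2 minus control 1) with 8 below 0, and between the LIN28A arrays a median of 0.063 with 3 below 0. All tested probe sets had medians of 0.024 and 0.12 for the same differences. Above 0 lay 51.8% and 58.3% of them, against 11.1% and 66.7% of the 9. Cyp26a1 differed by -3.35 and Dhrs3 by -1.95 between the control arrays, and by 0.20 and 0.063 between the LIN28A arrays. Crabp2 lay lower in number 2 than in number 1 in each line, by -0.78 and -1.41, and so by less did Rarb, by -0.061 and -0.29.

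**Figure D3:**
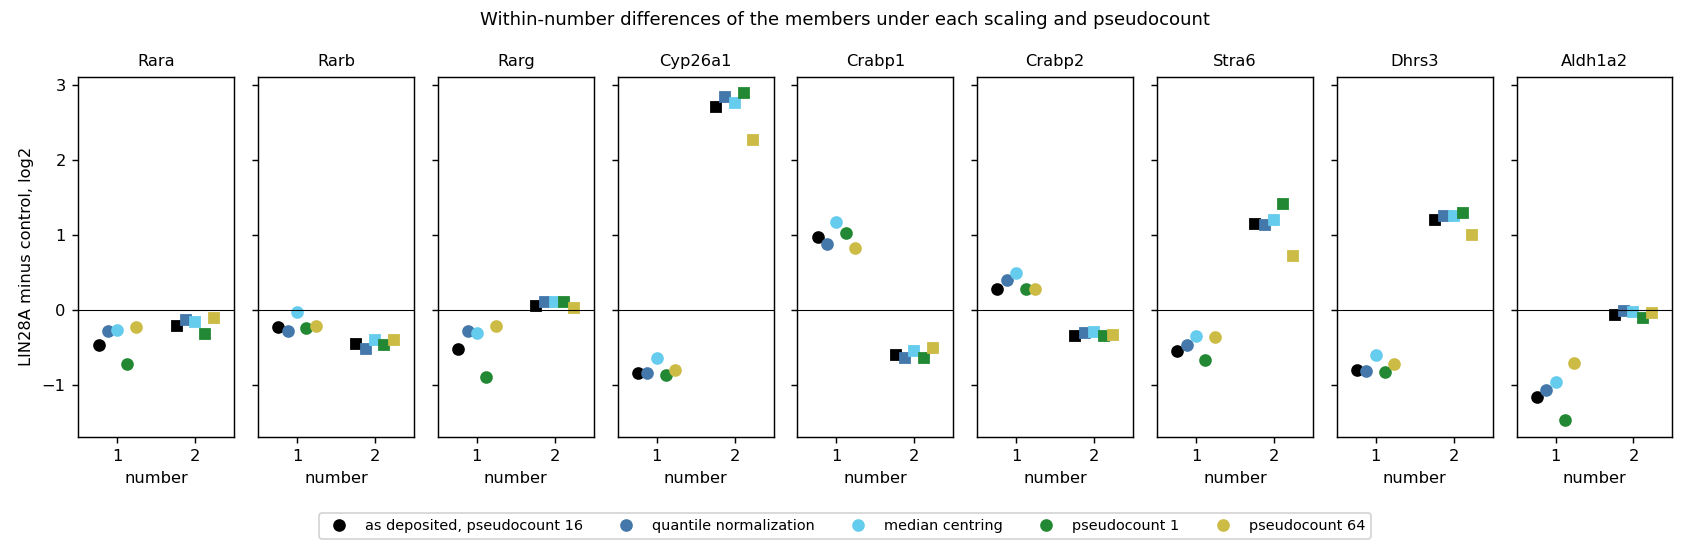
LIN28A minus control (vertical axis, log2) within number 1 (circles) and number 2 (squares) for each tested probe set under the deposited scale with pseudocount 16 (black), quantile normalization, median centring, pseudocount 1 and pseudocount 64. No difference changed sign under these settings; the Cyp26a1 difference within number 2 ran from 2.28 to 2.89.

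Marker lists were read on the same differences, where 25.3% of all tested probe sets were lower within number 1 and higher within number 2, and 16.8% the reverse. Of 8 tested mesoderm genes, 6 were lower within number 1 and higher within number 2, and of 9 pluripotency genes, 5 were. Of the 6 mesoderm genes, Mesp1, Tbx6, Pdgfra and Nkx2-5 were dim, reading 3.3 to 27.1 across the arrays against a filter bound of about 8.04. The mesoderm list's summed intensity was 231 and 119 in control against 105 and 263 in LIN28A arrays. Eomes at 105 and Twist1 at 64.6 were the largest parts of the 263 in LIN28A 2. The summed intensity of the pluripotency list was 264 and 512 in control against 310 and 1181 in LIN28A arrays, higher in LIN28A within both numbers. Single genes weighed heavily in that sum: Sall4 read 16.4 in control 1 and 194 in LIN28A 1. The pluripotency list's median difference was -0.31 within number 1 and 1.02 within number 2. Of 12 neural progenitor genes, 8 turned the other way, like Crabp1. The sums over all 12 were 9111 and 11268 in control against 10122 and 8011 in LIN28A arrays. Genes that did not turn weighed heavily in them. Vim read 4084.5 and 4164.9 in control against 3682 and 2983 in LIN28A arrays, lower within both numbers. Hes5 read 186 and 194 against 924 and 337, higher within both. Of 12 neuron genes, 10 were lower in LIN28A cells within both numbers, against 33.3% of all tested probe sets. The neuron sums were 3914 and 6426 in control against 1969 and 4524 in LIN28A arrays. Of 8 fibroblast or smooth muscle genes, 3 turned from lower to higher and 4 were higher in LIN28A within both numbers. Their sums were 363 and 207 in control against 391 and 581 in LIN28A arrays. Of 7 primitive endoderm genes, 1 turned from lower to higher and 4 were higher within both numbers. Their sums were 620 and 742 in control against 735 and 993 in LIN28A arrays. Higher within both numbers were 24.2% of all tested probe sets. The part of these markers, of the 18S signal and of the beta-actin ratio in the retinoid genes' differences was not tested.

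The nearest profiles to 3 of the genes were taken by the distance between mean-centred log2 values over the 4 arrays, with no test. Nearest to Cyp26a1 were the growth factor gene Bmp7 (distance 0.95), the kinase gene Tec (1.20) and Dhrs3 (1.24). Bmp7 read 235 and 32.6 in control against 153 and 114 in LIN28A arrays. Nearest to Stra6 were Hoxc6 (0.14), Calcb (0.18) and Nodal (0.19), and nearest to Rarb were Cbfa2t3, Atr and Txndc9 (0.027 to 0.034). The neighbours of Cyp26a1 thus lay farther off than those of Stra6 and Rarb. With 4 arrays, unrelated probe sets can share a pattern.

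Genes around these in the pathway were followed in 4 lists, each gene at its brightest tested probe set. No gene of any list was called by limma (0 higher and 0 lower in each), and at an unadjusted p under 0.05 there was 1 gene, Egr1, against the 0.442% and 1.21% of all probe sets given above. Over all 8930 tested genes the median difference was -0.084 within number 1 and 0.012 within number 2.

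Of 9 RXR partners and other nuclear receptors, 5 were tested, with medians of 0.27 within number 1 and -0.07 within number 2. Rxra, an obligate partner of the retinoic acid receptors, read 58.4 and 84.8 in control against 108 and 96.7 in LIN28A arrays, both above control. Its difference was 0.45 ± 0.31 SE there and -0.36 at its other probe set, so its probe sets disagreed in direction. Rxrb read 275 and 278 in control against 336 and 264 in LIN28A arrays, which overlapped. The thyroid hormone receptor gene Thra differed by -0.49 and the orphan receptor gene Nr2c1 by -0.18, and Rxrg lay under the filter.

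Of 21 coregulators, 17 were tested, with medians of 0.023 within number 1 and 0.0056 within number 2. Both LIN28A arrays lay above control for 2 of the 17 and below for 2, against 10% and 15.5% of all tested probe sets. Those with the smallest p were the histone methyltransferase gene Nsd1 (-0.43 ± 0.29 SE), the Mediator subunit gene Med1 (-0.37 ± 0.30), and the coactivator genes Ncoa2 (-0.41 ± 0.37) and Ncoa3 (0.32 ± 0.29).

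Of 36 other retinoid enzymes and carriers, 14 were tested, with medians of -0.25 within number 1 and 0.0085 within number 2. From lower to higher turned 6 of the 14, against 25.3% of all tested probe sets. Rdh10, which oxidises retinol to retinaldehyde in the embryo, read 74.6 and 155 in control against 48.4 and 220 in LIN28A arrays, high in number 2 in either line. Its differences of -0.49 and 0.46 turned in the same direction as those of Stra6. The dehydrogenase genes Adh7 and Dhrs7 and the serum carrier gene Rbp4 were the 3 of the 14 that lay lower in both LIN28A arrays, by -0.52, -0.37 and -0.56, against 15.5% of all tested probe sets, and Rdh14 differed by -0.36. Aldh1a1 and Aldh1a3, the other retinaldehyde dehydrogenase genes, lay under the filter at every probe set, with readings up to 12.

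Of 52 gene symbols listed as responsive to retinoic acid, 33 were tested, with medians of -0.03 within number 1 and -0.02 within number 2. Some genes were listed also under an older name. From lower to higher turned 10 of them, against 25.3% of all tested probe sets, and 7 turned the other way, against 16.8%. The early response gene Egr1 read 45.7 and 36.3 in control against 72.5 and 121 in LIN28A arrays, with a difference of 0.95 ± 0.34 SE (limma, unadjusted p = 0.031). Bhlhe40, a transcriptional repressor gene also named Stra13 for its induction by retinoic acid, read 244 and 80.1 in control against 70.6 and 27.9 in LIN28A arrays. Its LIN28A arrays lay below the controls, by -1.58 within number 1 and -1.13 within number 2. The forkhead gene Foxa1 read 69.7 and 65.8 in control against 89.8 and 247 in LIN28A arrays, with differences of 0.30 and 1.69. The homeobox gene Gbx2 read 52.6 and 194 in control against 29.3 and 53.0 in LIN28A arrays, with differences of -0.60 and -1.61. Hoxb1, a direct target with a nearby retinoic acid response element, read 23.2 and 13.7 in control against 21.5 and 13.1 in LIN28A arrays, and differed by -0.06 and -0.03. The order of Cyp26a1 and Dhrs3, with control 1 above and control 2 below both LIN28A arrays, was shared by 4 of the 33 genes (Hoxb4, Hoxa3, Zfp703 and Tshz1, picked for this order after the values were seen), against the 8.42% of all probe sets given above. The order was not particular to this list. Of the marker lists, 3 of 8 mesoderm and 2 of 9 pluripotency genes showed it, and 0 in each other marker list. It held for 1 of the 14 other enzymes and carriers, 0 of the 17 coregulators and 0 of the 5 RXR partners and other nuclear receptors. Hoxb4 read 444 and 298 in control against 435 and 442 in LIN28A arrays, and Hoxa3 read 177 and 118 against 161 and 164, so their LIN28A arrays too lay close together. For Hoxb4, control 1 was almost level with the LIN28A arrays and only control 2 stood apart.

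**Figure D4:**
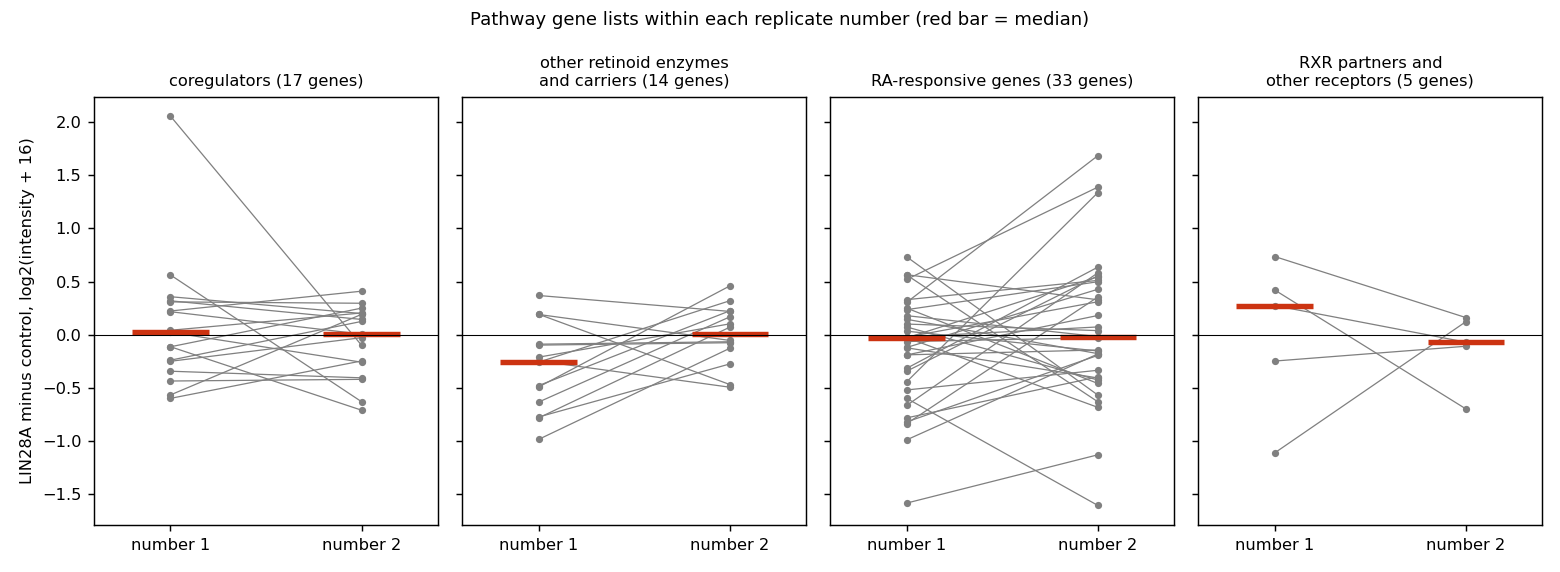
LIN28A minus control (vertical axis, log2(intensity + 16)) within number 1 and within number 2 for each tested gene of the 4 pathway lists; grey lines join the values of a gene and red bars are medians. The medians lie between -0.25 and 0.27.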

How the data were processed

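The authors deposited 1 table of probe set intensity values on a linear scale, from 1-colour Affymetrix arrays of biotin-labelled cRNA made from total RNA by oligo(dT) priming, per the labels' protocols. Software for probe summaries and scaling: not given in the sources used here. With 2% of values trimmed from either end, each array had a mean of 150.1, so no further scaling was applied. Genes were named from the platform annotation (20393 probe sets with 1 symbol, 691 with several, 1555 with none).

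Values became log2(intensity + 16). Probe sets whose mean lay under the 30th percentile (about 8.04) and 64 control probe sets were left out, which left 15838. Lines were compared with limma 3.58.1 in R 4.3.3 (lmFit, eBayes, no block, two-sided, Benjamini-Hochberg, threshold 0.05). The fit was also run on simulated data. The planted differences there were larger than those of the retinoid genes over all arrays, so that run does not measure power at their size. Separate cultures are not stated for the repeats, and p-values then cover only a spread among arrays that may be technical. With 2 arrays a line, precision is low.

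The genes and lists were chosen with earlier results of these data known. Named were the 9 genes, of each list the 4 genes with the smallest p plus fixed retinoid genes, and the 3 nearest profiles of Rarb, Cyp26a1 and Stra6. Alternatives were other scalings, pseudocounts and filters, the replicate block, eBayes trend, and leaving out each array.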

Additional observations from a re-analysis of the deposited data

How the results depend on the processing

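With all 4 arrays kept, 0 probe sets were called higher and 0 lower, except with the replicate block, which called 1 higher and 0 lower. In these fits, 0 probe sets of the 9 retinoid genes were called, and 0 met an unadjusted p under 0.05 (limma). Fits without 1 array left a line with 1 array, so only their differences are given. Arrays of one number deviated in the same direction from their group means (r = 0.62 over probe sets), but the labels give them only a shared number. An unadjusted p under 0.05 (limma) was met by 468 higher and 890 lower probe sets with the replicate block, against 70 and 192 without it. Other settings with all 4 arrays gave 51 to 167 higher and 89 to 362 lower. The median over the 9 probe sets, -0.028 over all arrays, was -0.40 to -0.055 without 1 array. It was 0.047 under quantile normalization and 0.099 under median centring. Other filters changed which probe sets were in the median. Unfiltered, with the dimmer Rarg probe set added, it was 0.080. Filtered at the 50th percentile, which dropped Rara and Rarg, it was 0.19. Median list differences without 1 array were -0.12 to 0.27 for RXR partners, -0.23 to 0.16 for coregulators, -0.29 to -0.061 for enzymes and carriers and -0.087 to 0.020 for responsive genes. Without 1 array, Cyp26a1 ran from -0.74 to 2.61, Dhrs3 from -0.77 to 1.17, Stra6 from -0.18 to 0.78, Crabp1 from -0.29 to 0.67 and Crabp2 from -0.73 to 0.68; these fits hold unequal numbers per line. Crabp2 also reversed to 0.047 under quantile normalization and 0.099 under median centring. Median centring moved the number 1 median of all probe sets from -0.087 to 0.12 and left Rara alone of 3 genes lower in both LIN28A arrays. The cause was not tested.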
